A study of Homo sapiens with 7 samples.

Results

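The genes described here are 52 genes of DNA replication and S phase, chosen by name for their known roles in replication and read in PC3 cells with and without induction of MITFA. PC3 cells were derived from human prostate cancer that had spread to bone. The cells carried a doxycycline-inducible cassette (TRIPZ) for MITFA, the A isoform of the transcription factor MITF, and were cultured with doxycycline (Dox, replicates 1 to 4) or without it (No dox, replicates 2 to 4). Both groups hold the cassette, so the only difference that the labels give is doxycycline. No array of cells with doxycycline and without the cassette was analysed here, so the effects of doxycycline and of MITFA cannot be told apart. A No dox replicate 1 was not analysed here, no dose or time is given for the arrays in the sources used here, and neither is whether the line is a pool or 1 clone. No source says that the arrays came from separate cultures, and so the spread behind each p-value is that of these 7 arrays and could be technical.

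Of the 52 genes, 50 had at least 1 tested probe with their name, and they were read by 67 probes. GINS1, a subunit of the GINS complex, and CCNE2, which encodes cyclin E2, had no tested probe with their name. A probe was tested when any of the arrays detected it (detection p-value under 0.01), which held for 19337 of the 47323 probes of the BeadChip. The 67 probes are part of 15060 tested probes that carry 1 gene name, which cover 11389 genes. Most were detected throughout, and 64 of the 67 probes were detected on all 7 arrays. The exceptions were E2F1 (2 of 4 Dox and 1 of 3 No dox arrays), DBF4 (3 of 4 and 3 of 3) and 1 of the PCNA probes (3 of 4 and 3 of 3). Because bulk RNA was measured, fewer cells in S phase and less RNA in each such cell cannot be told apart.

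Replication starts when the origin recognition complex, together with CDC6 and CDT1, loads the MCM helicase ring onto DNA before S phase, a step known as licensing. The kinase CDC7 with its activator DBF4 and the cyclin-dependent kinases then convert the loaded ring into an active helicase by addition of CDC45 and GINS, and the polymerases, the sliding clamp PCNA and its loader follow. Most of these genes are known targets of the E2F transcription factors, which are released when cells pass into S phase, and a fall of the whole program is a common reading of cells that leave the cell cycle. MITF belongs to a family of factors that bind the letters CACGTG (E-box) and, with flanking bases, TCATGTG (M-box).

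The promoters of the genes carry the letters of E2F sites more often than promoters in general. RefSeq promoters (GRCh38.p14, 250 bases before to 50 after a start) were matched for 45 of the 52 genes, with 56 entries. On either strand, the letters TTCCCGC or a variant of them (TTGGCGC and also TTGCCGC and also TTCGCGC) were found in 37 of the 56 entries (66.1%), against 12.97% of all 35116 promoters and 19.0% of the 13452 promoters of tested genes. The E-box letters CACGTG were in 6 entries (10.7%), those of MCM2, MCM7, GMNN, RPA1, FEN1 and CHAF1A, against 7.26% of all promoters and 9.34% of those of tested genes. The M-box letters TCATGTG were found in 1 entry (1.79%), that of GINS3, against 2.92% of all promoters and 1.75% of those of tested genes. CCAAT was in 32 entries (57.1%), against 34.6% and 35.4%. Some of these letter strings can overlap, as TTGGCGC and the reverse complement of TTCGCGC do in the promoter of ORC1 shown here. The following stretches lie upstream of an annotated start of genes whose Dox and No dox arrays did not overlap at a probe (values further on). The stretches are shown because they hold such letters, and that of ORC1 lies inside the outermost annotated bounds of its gene. They read 5′ to 3′ on the strand of the gene, with E2F, E-box and M-box letters in capitals, and come from chr1:52404424-52404457 (minus strand) for ORC1, chr6:52284747-52284927 (minus strand) for MCM3, chr1:91500737-91500850 (plus strand) for CDC7, chr17:1829824-1829924 (plus strand) for RPA1 and chr16:58392226-58392256 (plus strand) for GINS3.
ORC1: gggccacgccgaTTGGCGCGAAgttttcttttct
MCM3: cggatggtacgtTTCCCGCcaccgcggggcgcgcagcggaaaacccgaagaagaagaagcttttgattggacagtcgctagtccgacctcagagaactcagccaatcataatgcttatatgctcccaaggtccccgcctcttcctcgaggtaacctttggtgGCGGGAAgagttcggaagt
CDC7: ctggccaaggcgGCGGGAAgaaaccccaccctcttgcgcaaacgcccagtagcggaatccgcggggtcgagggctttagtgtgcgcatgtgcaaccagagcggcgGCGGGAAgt
RPA1: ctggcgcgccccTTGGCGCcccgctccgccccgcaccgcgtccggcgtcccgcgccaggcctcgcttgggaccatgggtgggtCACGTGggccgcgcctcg
GINS3: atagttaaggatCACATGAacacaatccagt
In ORC1, MCM3 and CDC7 the capitals are E2F letters in either orientation, in RPA1 an E2F string is followed by an E-box, and in GINS3 the capitals are an M-box on the opposite strand. GINS3 had E2F letters too, and so did CDC6 and POLE2, the other genes whose arrays did not overlap, within the 300-base window but not wholly upstream of the start.

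No replication gene passed the test upon MITFA induction. The threshold was an adjusted p under 0.05 (limma, Benjamini-Hochberg over the 19337 tested probes). At this threshold Dox was called higher at 0 of the 67 probes and lower at 0. In this fit, 0.134% of all tested probes were called higher and 0% lower. The smallest adjusted p among the 67 probes was 0.51. At an unadjusted p under 0.05, 1 of the 67 probes was higher (CDC6) and 2 were lower (GINS4 and POLE2), which is 1.49% and 2.99% of them, against 4.49% and 4% of all tested probes. The log2 fold changes of the 50 genes, each by its brightest probe, lay between −0.26 and 0.22, with a median of −0.02 (all 11389 tested genes, 0.01). In 33 of the 50 genes (66.0%) the fold change was below 0, as it was in 48.1% of all tested genes. The number of all tested probes called at an adjusted p under 0.05 depended on the processing. It was 26 in this fit, 101 without background correction and 158 with an intensity trend in the variance model. The 101 and 158 probes were not divided by direction here, so the 0% lower was read in this fit only.

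The intervals bound the size of the change at each probe. For all 67 probes the 95% interval of the fold change lay within 1.5-fold in either direction, as did that of 97.8% of all tested probes. For 45 probes (67.2%) it lay within 1.2-fold, against 38.3% of all tested probes, and for 66 on the authors' log2 values and 28 without No dox replicate 2. The outermost bound of any of the 67 intervals was 1.46-fold, at the dimmer of the MCM10 probes. The spread between arrays of a group was smaller at these probes than at others. The median residual SD was 0.084 log2 units over the 67 probes and 0.11 over the 15060 tested probes with 1 gene name. The part of this in the narrower intervals was not tested.

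**Figure D1:**
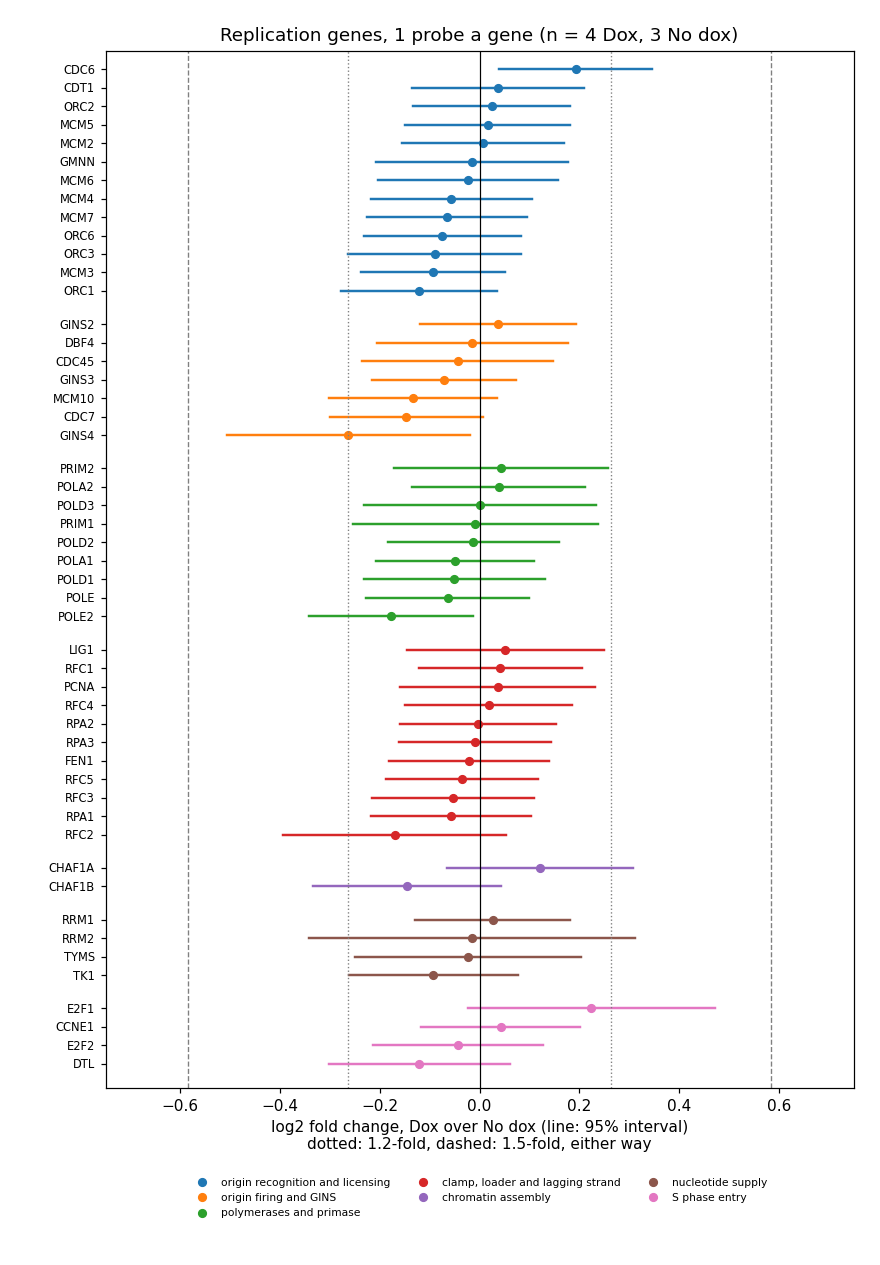
Log2 fold change of Dox over No dox (horizontal axis) for the 50 replication genes with a tested probe, each by its brightest probe, with the 95% interval as a line and the functional groups in colour. All intervals lie between the dashed lines at 1.5-fold, and the intervals of CDC6, GINS4 and POLE2 do not cross 0.

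Genes of origin recognition and licensing, 13 in all, had a median log2 fold change of −0.02, with 8 of 13 below 0. CDC6, the ATPase that helps to load MCM at origins, stood on the other side. Its probe (ILMN_1785914) had log2 signals of 5.47, 5.39, 5.51 and 5.43 on the Dox arrays, against 5.22, 5.32 and 5.23 on the No dox arrays. All 4 Dox arrays were above all 3 No dox arrays, with a log2 fold change of 0.19 (95% interval 0.04 to 0.35, unadjusted p = 0.019 and adjusted p = 0.51 from limma). The probe was dim, and on the authors' log2 values, with no further background correction, its log2 fold change was 0.07 (unadjusted p = 0.12 and adjusted p = 0.66 from limma).

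Among the subunits of the origin recognition complex, ORC1, an ATPase subunit, had log2 signals of 6.61, 6.55, 6.48 and 6.46 in Dox and 6.63, 6.62 and 6.68 in No dox. All Dox arrays were below all No dox arrays, by a narrow margin for Dox replicate 1, and the log2 fold change was −0.12 (95% interval −0.28 to 0.03, unadjusted p = 0.11 and adjusted p = 0.68 from limma). ORC6, the smallest subunit and the brightest probe of this group, had 12.03, 12.08, 12.02 and 11.97 in Dox and 12.02, 12.10 and 12.18 in No dox, and the groups overlapped. Log2 fold changes were −0.07 for ORC6, −0.09 for ORC3 and 0.02 for ORC2, none with an unadjusted p under 0.05. CDT1, which brings MCM to the origin, had a log2 fold change of 0.04, and GMNN, which encodes geminin, its inhibitor, had −0.01.

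The 6 subunits of the MCM2 to MCM7 helicase ring, which act as 1 complex, lay close to 0. The log2 fold changes by the brightest probe were 0.01 for MCM2, −0.09 for MCM3, −0.06 for MCM4, 0.02 for MCM5, −0.02 for MCM6 and −0.06 for MCM7. MCM3 was the only ring subunit with a probe at which the groups did not overlap (ILMN_2224143). Its signals were 11.28, 11.29, 11.28 and 11.24 in Dox, against 11.32, 11.40 and 11.37 in No dox, and the unadjusted p was 0.18 (adjusted p = 0.73 from limma). The groups overlapped at the other MCM3 probe, where the log2 fold change was −0.04.

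Genes of origin firing and GINS had the lowest median of the 7 functional groups, −0.07, with 6 of 7 tested genes below 0. GINS4, a subunit of the GINS complex that joins the helicase, had signals of 5.56, 5.34, 5.60 and 5.52 in Dox and 5.96, 5.82 and 5.53 in No dox. No dox replicates 2 and 3 were above all Dox arrays, while No dox replicate 4 lay among them. The log2 fold change of −0.26 was the one furthest from 0 of the 67 probes in this fit (95% interval −0.51 to −0.02, unadjusted p = 0.037 and adjusted p = 0.56 from limma), and it was −0.11 on the authors' values and −0.17 without No dox replicate 2. The other GINS subunits with a probe had −0.07 (GINS3) and 0.04 (GINS2).

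GINS3 had small spread, with 9.19, 9.23, 9.21 and 9.21 in Dox and 9.30, 9.31 and 9.24 in No dox. Its groups did not overlap, but the log2 fold change of −0.07 had an unadjusted p of 0.29 and an adjusted p of 0.80 from limma. GINS2, the brightest of the group, had 9.97, 10.04, 10.02 and 10.02 in Dox and 9.90, 10.06 and 9.97 in No dox, with overlapping groups. CDC7, the kinase that triggers firing, had 8.05, 8.05, 8.07 and 8.15 in Dox, against 8.18, 8.21 and 8.29 in No dox. Every Dox array was below every No dox array, with a log2 fold change of −0.15 (95% interval −0.30 to 0.01, unadjusted p = 0.058 and adjusted p = 0.60 from limma). On the authors' values CDC7 had −0.12 (unadjusted p = 0.020 and adjusted p = 0.39 from limma). Its activator DBF4, a dim probe, had −0.01, the helicase cofactor CDC45 had −0.04, and MCM10, which acts at helicase activation, had −0.13 at its brighter probe.

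**Figure D2:**
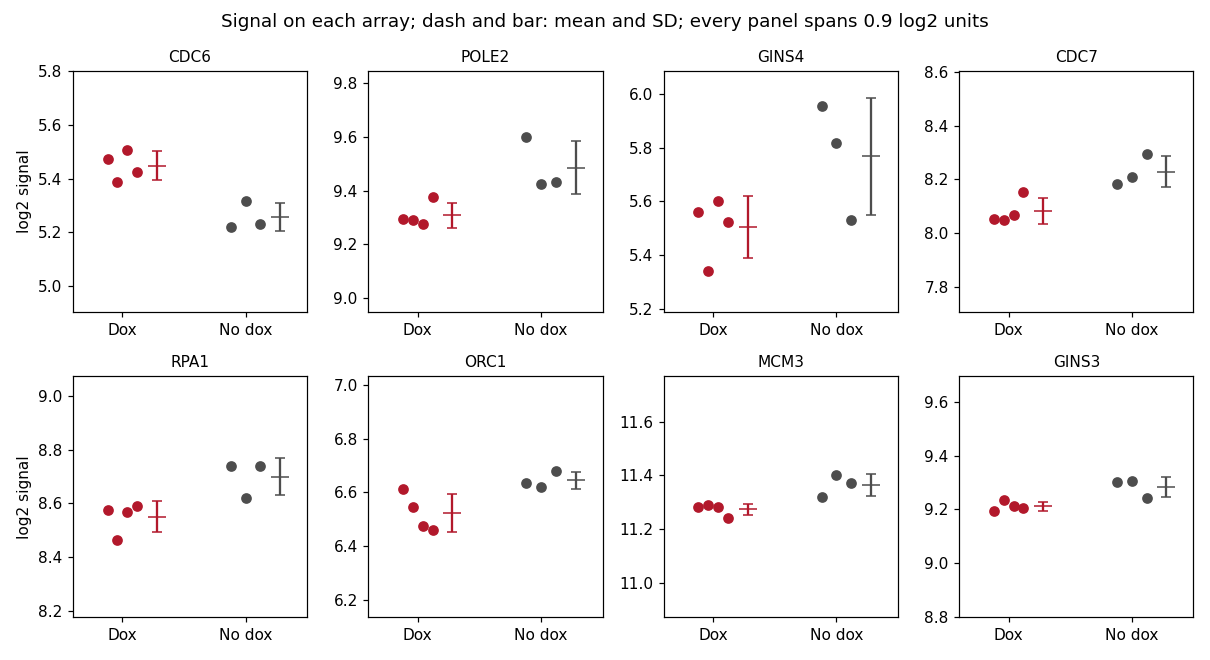
Log2 signal on each array (vertical axis) for the 8 probes with non-overlapping groups or an unadjusted p under 0.05, RPA1 and MCM3 at 1 of their probes, with Dox to the left of No dox. Dashes and bars are means and SDs (n = 4 Dox and 3 No dox), and the groups are separate in every panel but that of GINS4.

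Over the 67 probes, the groups did not overlap at 7. Dox was higher at 1 probe (CDC6, 1.49%), against 5.07% of all tested probes. Dox was lower at 6 probes (CDC7, GINS3, MCM3, ORC1, POLE2 and RPA1, 8.96%), against 4.24% of all tested probes. The values of CDC7, GINS3, MCM3 and ORC1 are given for this separation, so they were chosen after their values were seen. With fewer arrays the groups separate more often at any probe. With No dox replicate 4 left out, Dox was higher at 3 and lower at 13 of the 67 probes, where 9.83% and 9.02% of all tested probes did not overlap in these directions. The lower count was 11 without Dox replicate 1 (6.61% of all tested probes), 10 without No dox replicate 2 (8.72%) and 10 without No dox replicate 3 (8.36%). The higher count was 2 without Dox replicate 1 (7.48%), without Dox replicate 4 (7.23%) and without No dox replicate 3 (8.68%).

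Polymerase and primase genes had a median log2 fold change of −0.01, with 6 of 9 below 0. POLE2, the second subunit of the leading-strand polymerase epsilon, had 9.29, 9.29, 9.27 and 9.38 in Dox, against 9.60, 9.43 and 9.43 in No dox. All Dox arrays were below all No dox arrays, No dox replicate 2 was the highest, and the log2 fold change was −0.18 (95% interval −0.34 to −0.01, unadjusted p = 0.037 and adjusted p = 0.57 from limma). On the authors' values POLE2 had −0.16 (unadjusted p = 0.0051 and adjusted p = 0.23 from limma). POLE, the catalytic subunit of the same enzyme, had −0.06 with overlapping groups. Without No dox replicate 2, neither CDC6 (unadjusted p = 0.052 from limma), GINS4 (0.16) nor POLE2 (0.14) kept an unadjusted p under 0.05. It was also over 0.05 for CDC6 without No dox replicate 4 (0.051). For GINS4 it was over 0.05 without Dox replicate 2 (0.096), Dox replicate 4 (0.058) and No dox replicate 3 (0.10). For POLE2 it was over 0.05 without Dox replicate 1 (0.069), Dox replicate 2 (0.076) and Dox replicate 3 (0.075), all from limma.

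The lagging-strand polymerase delta was close to 0 at each subunit, with log2 fold changes of −0.05 for the catalytic subunit POLD1, −0.01 for POLD2 and 0.00 for POLD3. Polymerase alpha, which starts new strands with primase, had −0.05 for its catalytic subunit POLA1 and 0.04 for POLA2. PRIM1, the catalytic primase subunit and the brightest probe of this group, had 9.73, 9.61, 9.51 and 9.50 in Dox and 9.69, 9.33 and 9.76 in No dox. The No dox arrays of PRIM1 lay on both sides of the Dox arrays, and the log2 fold change was −0.01 (unadjusted p = 0.94 and adjusted p = 0.99 from limma), with 0.04 for its partner PRIM2.

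The clamp, its loader and the lagging-strand enzymes, 11 genes, had a median of −0.01, with 7 of 11 below 0. PCNA, the sliding clamp and a common marker of proliferation, had 9.68, 9.56, 9.59 and 9.81 in Dox and 9.71, 9.66 and 9.50 in No dox at its brighter probe. The groups overlapped, and the log2 fold change was 0.04 (95% interval −0.16 to 0.23). Of the subunits of the clamp loader, RFC1 had 0.04, RFC2 −0.17, RFC3 −0.05, RFC4 0.02 and RFC5 −0.04, none with an unadjusted p under 0.05. FEN1, the nuclease that trims Okazaki fragments and the brightest probe of this group, had 10.62, 10.69, 10.71 and 10.82 in Dox and 10.72, 10.74 and 10.74 in No dox. Its Dox arrays surrounded the No dox arrays, and the log2 fold change was −0.02, with 0.05 for LIG1, the ligase that seals the fragments.

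Replication protein A coats single-stranded DNA and has 3 subunits. RPA1, the large one, was read by 3 probes, and at 1 of them (ILMN_1795719) the groups did not overlap. Its signals there were 8.58, 8.46, 8.57 and 8.59 in Dox, against 8.74, 8.62 and 8.74 in No dox, with a log2 fold change of −0.15 (unadjusted p = 0.062 and adjusted p = 0.61 from limma). On the authors' values this probe had −0.13 (unadjusted p = 0.016 and adjusted p = 0.37 from limma). The other RPA1 probes had −0.06 and 0.03, and RPA2 and RPA3 had 0.00 and −0.01.

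The histone chaperone subunits that place nucleosomes behind the fork had fold changes of opposite sign. CHAF1B had 7.48, 7.58, 7.70 and 7.63 in Dox and 7.88, 7.70 and 7.65 in No dox, with overlapping groups and a log2 fold change of −0.15 (unadjusted p = 0.12 and adjusted p = 0.68 from limma), or −0.08 without No dox replicate 2. Its partner CHAF1A had 0.12 (unadjusted p = 0.18 and adjusted p = 0.73). Both belong to 1 complex, and neither passed the test.

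Genes of nucleotide supply had a median of −0.02 over 4 genes. RRM1, the large subunit of ribonucleotide reductase, had 10.96, 10.84, 10.87 and 10.83 in Dox and 10.87, 10.80 and 10.88 in No dox, a log2 fold change of 0.03. RRM2, the small subunit, whose level follows S phase, had −0.01, with one of the wider intervals of the set (−0.34 to 0.31). TK1, thymidine kinase, had 9.37, 9.36, 9.26 and 9.27 in Dox and 9.38, 9.32 and 9.52 in No dox, a log2 fold change of −0.09 (unadjusted p = 0.25 and adjusted p = 0.77 from limma). TYMS, thymidylate synthase, had −0.02, and in all 4 genes the groups overlapped.

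Of the genes of S phase entry, E2F1, the factor that activates much of this program, had 4.77, 4.96, 4.72 and 4.54 in Dox and 4.38, 4.50 and 4.70 in No dox. This probe was close to the detection limit, the groups overlapped, and the log2 fold change was 0.22 (95% interval −0.02 to 0.47, unadjusted p = 0.071 and adjusted p = 0.63 from limma), or 0.07 on the authors' values. E2F2, a related activator and the brightest of the group, had 8.68, 8.56, 8.58 and 8.63 in Dox and 8.55, 8.66 and 8.76 in No dox, a log2 fold change of −0.04. CCNE1, which encodes cyclin E1, had 0.04, and DTL, which directs the degradation of CDT1 in S phase, had −0.12.

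By array, the level of the replication genes was set as the median deviation from the mean of both groups over the 50 genes. It was 0.01, −0.03, −0.03 and −0.02 in Dox and 0.01, 0.03 and 0.03 in No dox, and Dox replicate 1 lay above No dox replicate 2. For origin firing and GINS the medians were −0.02, −0.08, −0.03 and −0.07 in Dox, against 0.03, 0.08 and −0.01 in No dox, all Dox arrays below all No dox arrays. For polymerases and primase they were 0.01, −0.05, −0.03 and −0.02 in Dox, against 0.06, 0.03 and 0.04 in No dox, again without overlap. In the other 5 functional groups the arrays overlapped. Over all 11389 tested genes the same medians stayed between −0.0069 and 0.0069, and they too did not overlap between the groups, with Dox higher.

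**Figure D3:**
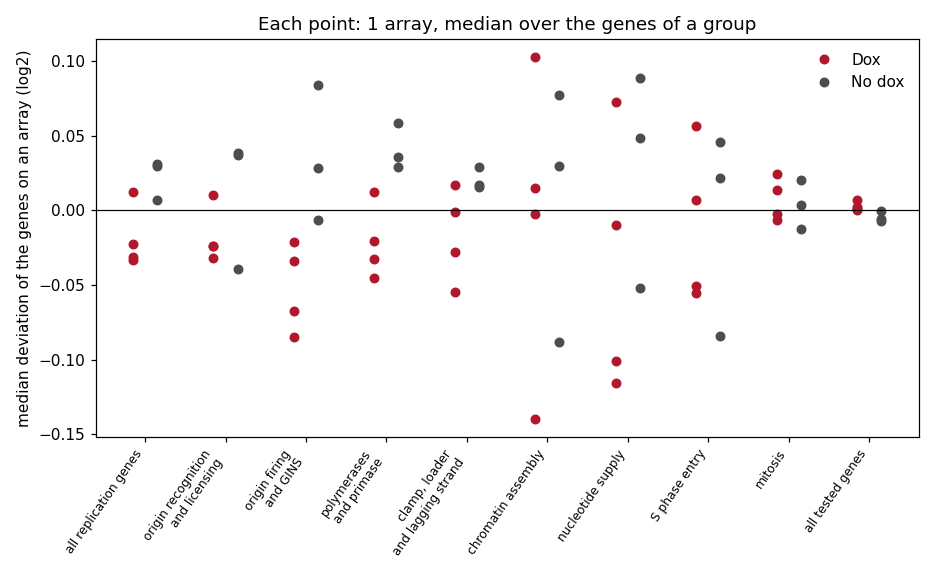
Median deviation (vertical axis, log2) on each array over the genes of each functional group, the mitosis genes and all tested genes, with Dox points left of No dox points. All Dox points are below all No dox points for origin firing and GINS and for polymerases and primase, by medians under 0.1 log2 units from 0.

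Probes of the same gene mostly had fold changes of the same sign. Of the 50 genes, 15 had several tested probes, 13 of them with 2 and RFC3 and RPA1 with 3, which makes 17 pairs of a further probe with the brightest one. In 13 of the 17 pairs the signs of the log2 fold changes were the same, and in 4 they were opposite (PCNA, POLD2, RFC1 and 1 of the RPA1 pairs). As 33 of the 50 genes were below 0, probes of different genes can share a sign too, and that share was not read. The median size of the difference between the probes of a pair was 0.05 log2 units. The widest was in RFC1, with 0.04 at the brighter and −0.16 at the dimmer probe (exact permutation test on the difference over 35 splits, two-sided, p = 0.23, adjusted p = 0.91 over 17 pairs). No pair had an unadjusted p under 0.05 in this exact test, whose smallest possible p is 0.029. After adjustment over 17 pairs a single differing pair could not pass, so the test does not show that the probes agree.

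In several of these genes the dimmer probe gave the value further from 0. At the brighter and the dimmer probe, MCM10 had −0.13 and −0.24, MCM4 −0.06 and −0.15, PRIM1 −0.01 and −0.09, POLA1 −0.05 and −0.07, ORC6 −0.07 and −0.10, and FEN1 −0.02 and −0.04. The reverse held for RFC2 (−0.17 and 0.00), MCM3 (−0.09 and −0.04), MCM7 (−0.06 and −0.03) and RFC4 (0.02 and 0.00). PCNA had 0.04 at the bright probe and −0.10 at a probe near the detection limit, POLD2 had −0.01 and 0.00, and RFC3 had −0.05, −0.08 and −0.02. None of these differences had an unadjusted p under 0.05 in the exact test, which is not evidence that the probes agree.

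**Figure D4:**
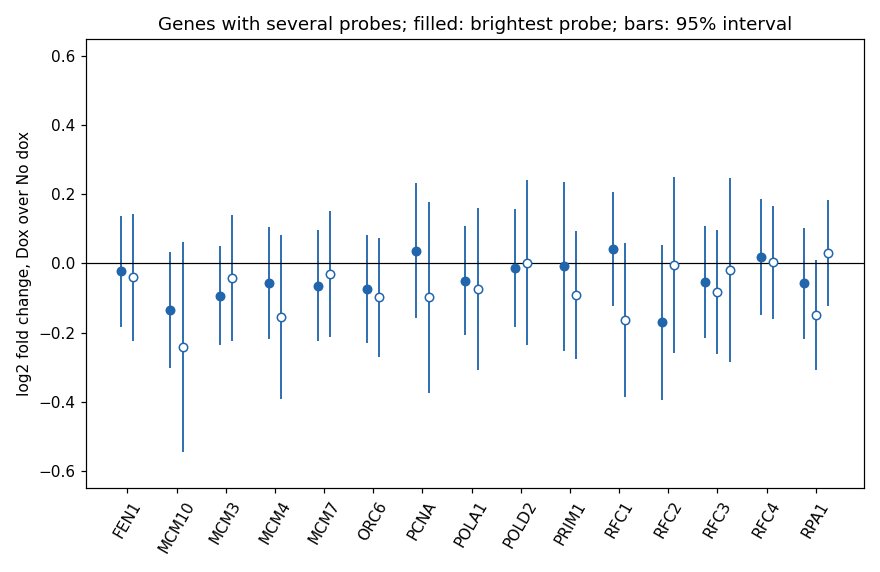
Log2 fold change of Dox over No dox (vertical axis) at each tested probe of the 15 genes with several probes, filled circles for the brightest probe and open circles for the others, with 95% intervals as bars. The intervals of the probes of each gene overlap.

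By the letters in the promoters, the median log2 fold change was −0.03 over the 34 tested genes with E2F letters in a promoter and −0.02 over the 10 without. It was −0.02 over the 6 genes with an E-box and −0.03 over the 38 without, and GINS3, with the M-box letters, had −0.07.

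Further genes of the replication and repair machinery that are not among the 52 were read as a second list. Of a list of 48 names, 44 genes had 60 tested probes, the median log2 fold change was −0.05, and 32 of 44 were below 0 (72.7%, against 48.1% of all tested genes). None was called in either direction. At an unadjusted p under 0.05, Dox was higher at 0 of the 60, against 4.49% of all tested probes, and lower at 5, a larger share than the 4% of all tested probes. At TIPIN, of the fork protection complex (log2 fold change −0.21), and UNG, which removes uracil from DNA (−0.21), this was the brightest or only probe of the gene, and the dimmer UNG probes had −0.06 and −0.01. At the other 3 genes it was a dimmer probe, and the brightest one lay nearer to 0. ORC5, a further origin recognition subunit, had −0.26 at the dimmer and −0.01 at the brightest probe, CDK2, the kinase partner of cyclin E, −0.24 and 0.00, and UHRF1, which maintains DNA methylation at the fork, −0.24 and −0.07. The adjusted p-values of the 5 probes were between 0.51 and 0.57 from limma. The count of 5 was 1 without Dox replicate 2, and 3 without either Dox replicate 4 or No dox replicate 4. It was 6 with an intensity trend in the variance model and 6 without Dox replicate 1. The share of all tested probes at this p is not given for these settings. With the intensity trend the adjusted p of UNG was 0.085 from limma. On the authors' values UNG had −0.20 (unadjusted p = 0.0017 and adjusted p = 0.14 from limma).

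Mitosis genes, read as another phase of the cell cycle, were divided between both signs. All 36 had a tested probe (54 probes), the median log2 fold change was −0.01, and 19 were below 0. At an unadjusted p under 0.05, Dox was higher at 0 probes and lower at 0, against 4.49% and 4% of all tested probes. Of 7 genes for inhibitors of cyclin-dependent kinases, 6 were tested with 10 probes and 0 were called. The median log2 fold change was 0.03 over these 6 genes, with 3 below 0 and a range of −0.09 to 0.24. At an unadjusted p under 0.05, Dox was higher at 2 of the 10 probes and lower at 0, against 4.49% and 4% of all tested probes. The 2 probes were of CDKN1A and CDKN2B. CDKN1A, which encodes p21, had 8.18, 8.31, 8.18 and 8.04 in Dox and 7.71, 8.05 and 8.05 in No dox, a log2 fold change of 0.24 (unadjusted p = 0.042 and adjusted p = 0.57 from limma). Without No dox replicate 2, the lowest array, it was 0.13 (unadjusted p = 0.20 from limma). CDKN2B, which encodes p15, had 8.38, 8.35, 8.47 and 8.12 in Dox and 8.14, 8.05 and 8.07 in No dox, also 0.24 (unadjusted p = 0.023 and adjusted p = 0.52), and 0.08 at its dimmer probe. On the authors' values CDKN1A had 0.19 (unadjusted p = 0.0078 and adjusted p = 0.27 from limma). CDKN2B had 0.20 on them (unadjusted p = 0.0031 and adjusted p = 0.19 from limma). In both genes Dox replicate 4 lay among the No dox arrays.

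Arrays were alike as a whole, with between 15562 and 16618 probes detected on each and correlations of log2 signal between 0.994 and 0.996. The epithelial markers KRT8 and EPCAM were detected on all 7 arrays. KRT18, the fibroblast gene DCN and the leukocyte genes PTPRC and CD3E had no tested probe with their name. COL1A1 was detected on 0 of 4 Dox and 1 of 3 No dox arrays, COL1A2 on 3 of 4 and 2 of 3, and CD14 on 4 of 4 and 2 of 3, all at low signal.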

How the data were processed

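Expression was read on Illumina BeadChip arrays from 4 Dox and 3 No dox samples of PC3 TRIPZ-MITFA cells. The authors deposited signal intensity values, not normalized, with a detection p-value for each of 47323 probes. They also deposited log2 values for 19337 probes, which the study's methods describe as background-corrected and quantile-normalized with lumi. At CDC6, GINS4 and POLE2 these values gave the same log2 fold changes as the intensities without background correction (0.07, −0.11 and −0.16). In both settings 101 of all probes were called, so they are not independent checks. From the intensities, background was corrected with neqc of limma 3.58.1 in R 4.3.3 (negative controls inferred from detection p-values, offset 16), followed by log2 and quantile normalization, in place of lumi, which was not used here. Probes that any array detected (p-value under 0.01) entered a limma fit of 2 group means with empirical Bayes moderation, and the Benjamini-Hochberg adjustment ran over all of them. Background correction widens the fold changes of dim probes. Genes were named by the platform annotation, 4275 tested probes carry no name there, and the brightest tested probe stood for a gene. The number of arrays limits the precision, and array chips could not be set as a block because no chip identifiers were used.

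The replication genes and the other lists were chosen with earlier results of these data known. Of the replication genes, the value on each array is given for every probe with an unadjusted p under 0.05 and, in each functional group, for the probe with the smallest p and the brightest gene. Alternatives covered background, normalization, the detection filter, the deposited log2 values, variance model, array weights, the replicate number and each array left out. The same alternatives were applied to the counts of intervals and to the other replication genes after the data were seen. Some marker genes are not reported here.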

Additional observations from a re-analysis of the deposited data

Results flagged for a closer look

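In each of the 67 probes, the highest or lowest of the 4 Dox arrays was compared with the others by its gap over the range, against Dixon's critical value for a group of 4. In 3 probes it lay beyond the limit, which chance gives for about 1 in 20. At the RPA1 probe ILMN_1795719, Dox replicate 2 was the lowest, with a gap of 0.83 of the range (8.46, against 8.57 to 8.59 in the other Dox arrays and 8.62 to 8.74 in No dox). At the dimmer MCM7 probe, Dox replicate 3 was the highest, with 0.862 (5.81, against 5.56 to 5.59 in the other Dox arrays and 5.61 to 5.71 in No dox). At POLD3, Dox replicate 2 was the highest, with 0.857 (7.12, against 7.07 to 7.08 in the other Dox arrays and 6.82 to 7.29 in No dox).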

How the results depend on the processing

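No replication probe was called in either direction under any of the 17 alternatives fitted, where the smallest adjusted p of any of them was 0.23 (limma), although the number of all probes called went from 6 to 158. The median log2 fold change lay between −0.03 and −0.02 and the count of genes below 0 between 28 and 35. All 67 or 66 intervals stayed within 1.5-fold, and those within 1.2-fold, 45 here, numbered 66 on the authors' values and also without background correction, 24 with the replicate block and 28 to 37 with an array left out. Replicate numbers did not pair the arrays (correlations of deviations −0.035, 0.0090 and −0.021, and 0 of 3 No dox arrays closest to their own number). On the 6 arrays with numbers 2 to 4, the replicate block called 6 of all probes and 18 were called without it. Leaving out Dox replicate 1 gave these same 6 arrays. It and the fit without the block are therefore the same fit, counted under both names among the 17 alternatives and in the comparisons below.

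Counts of probes with an unadjusted p under 0.05 moved. The shares of all tested probes at this p are given for the fit used above only (4.49% higher and 4% lower). The counts under the alternatives therefore have no such share beside them, and cannot be read against one. The count of higher probes, 1 here, was 0 without background correction, 0 on the authors' values, 0 with an intensity trend, 0 with the replicate block and between 0 and 2 with an array left out. The count of lower probes, 2 here, was 4 without background correction, 4 on the authors' values, 4 with no detection filter, 4 with detection on every array of a group, 5 with an intensity trend, 1 with the replicate block, 4 on the same 6 arrays without the block and between 0 and 4 with an array left out. It was 0 with Dox replicate 2 or No dox replicate 2 left out, 1 with Dox replicate 3 left out and 4 with Dox replicate 1 left out. The probes with no overlap numbered 2 higher and 11 lower on the 6 arrays, with and without the replicate block (7.48% and 6.61% of all tested probes), and between 1 and 3 higher and between 6 and 13 lower with an array left out. The cause was not tested.

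Over 24 named probes and 407 comparisons with an alternative, 393 kept their direction and side of the threshold, and the 14 that changed sign were all of uncalled values near 0. E2F2 was 0.0089 without No dox replicate 4 (−0.099 to 0.0089 over the arrays left out), and FEN1 was 0.0092 on the 6 arrays with and without the replicate block and without Dox replicate 1 (−0.058 to 0.0092). GINS2 was −0.0031 without No dox replicate 2 (−0.0031 to 0.081). PRIM1 was 0.0067 with array weights, 0.018 and 0.020 without Dox replicates 3 and 4, and 0.042 and 0.071 without No dox replicates 2 and 4 (−0.14 to 0.071). RRM1 was −0.0030 on the 6 arrays with and without the replicate block and without Dox replicate 1, and −0.00037 without No dox replicate 3. Depth is not defined for arrays, and dim probes such as E2F1, DBF4 and CDC6 carry the least signal over background.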
